A study of Mus musculus with 2 samples.

Results

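The 9 miRNA genes described here, Mir770, Mir673, Mir493, Mir337, Mir540, Mir665, Mir341, Mir1188 and Mir370, lie at the Meg3 and Rian end of the imprinted Dlk1-Dio3 locus on mouse chromosome 12. They were chosen by name and position, with earlier results of these data known. All are proximal miRNA genes in or near the noncoding genes Meg3 and Rian and are not opposite Rtl1. Mir1906-1, Mir3070a, Mir3070b and Gm23912 also fit that description and are not in the set. The set holds 9 of the 2202 miRNA genes counted and 9 of the 67 annotated between Dlk1 and Dio3. The data are microRNA sequencing libraries from cerebral cortex of wild-type mice of strain B6NCrl, described as female controls, with a size range below 30 in the labels. The series holds 1 group of 2 libraries, biological replicates 1 and 2 by their labels, each from its own tissue record. Both name the same donor record and give no age, so separate animals are not stated and the spread between libraries can be technical. With no treatment or genotype to compare, the questions are how strongly each gene was counted in cortex, how the genes differ among themselves and from the rest of the locus, and how well the libraries agree on them.

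MicroRNAs are cut from hairpin precursors, and 1 strand of the cut duplex guides the repression of messenger RNAs that pair with its seed, bases 2 to 8. The Dlk1-Dio3 locus is imprinted. Its noncoding RNAs Meg3, Rian and Mirg and its miRNAs are expressed from the maternal chromosome, and its protein-coding genes Dlk1, Rtl1 and Dio3 from the paternal one. In mice the maternal RNAs are abundant in the embryo and in brain. No messenger or long noncoding RNA was measured here, so Meg3 and Rian themselves were not observed.

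The mature sequences follow for the more abundant genes. The counts are per gene and do not tell the arms of a hairpin apart. For Mir673 and Mir540 only the arm whose seed another miRNA shares is printed, though both arms are annotated. The sequences are from RefSeq (GRCm38.p6, plus strand, 5′ to 3′), which held all 9 genes, and the capitals mark the seed.
miR-770-5p: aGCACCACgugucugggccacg
miR-770-3p: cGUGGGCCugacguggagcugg
miR-673-5p: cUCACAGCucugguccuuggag
miR-337-5p: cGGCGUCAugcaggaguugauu
miR-337-3p: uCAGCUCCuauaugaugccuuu
miR-540-3p: aGGUCAGAggucgauccugg
miR-665-5p: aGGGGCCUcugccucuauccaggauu
miR-665-3p: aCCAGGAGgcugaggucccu
miR-341-5p: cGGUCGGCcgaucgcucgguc
miR-341-3p: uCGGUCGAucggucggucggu
miR-370-5p: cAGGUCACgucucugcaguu
miR-370-3p: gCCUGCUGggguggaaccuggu
No seed was shared within the set: the 18 mature arms of the 9 genes carried 18 distinct seeds. Of those, 15 belonged to no other mouse miRNA in the RefSeq table of 1738 mature names. The seed of miR-673-5p was shared with miR-6985-3p, that of miR-540-3p with miR-6915-5p, and that of miR-370-5p with miR-1193-3p. Mir1193, which lies in the distal array of the same locus, had 60.3 CPM in replicate 2, against 85.6 CPM in replicate 1. Mir6985 and Mir6915 were at 7.68 CPM or less in each library.

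None of the 9 precursors shared a run of 18 nt with another annotated miRNA precursor in the same orientation. This bears on the counts, because reads placed at several loci enter no gene's count. The search covered annotated precursors and transcripts, not the genome. Outside the host Meg3, a run of 18 nt in miR-1188-3p also occurred in a transcript of Lonp1, a mitochondrial protease gene. Mir337 overlaps the annotated Mir3544 on the opposite strand, and the reverse complements of both miR-337 arms lie within that precursor.

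The hairpins of the highest and the lowest gene are shown together with that of Mir341, the close neighbour of the lowest. Capitals mark the mature arms.
Mir770, chr12:109563692-109563785: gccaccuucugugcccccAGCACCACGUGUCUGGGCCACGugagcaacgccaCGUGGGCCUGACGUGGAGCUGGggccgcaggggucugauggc
Mir341, chr12:109611500-109611595: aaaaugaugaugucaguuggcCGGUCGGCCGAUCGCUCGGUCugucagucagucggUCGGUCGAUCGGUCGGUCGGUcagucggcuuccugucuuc
Mir1188, chr12:109611822-109611941: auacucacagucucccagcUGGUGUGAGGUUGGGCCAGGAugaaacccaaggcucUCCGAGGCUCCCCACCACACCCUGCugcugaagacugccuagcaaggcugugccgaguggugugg
The Mir341 hairpin holds a short repeat. The letters CGGU, searched on the strand of the hairpin, occurred in it 7 times. At least 1 occurrence was found in 11.9% of the 1005 mouse hairpins in the table, and no other hairpin held more than 3. The letters were picked from the Mir341 hairpin itself, so its lead over the others is a description and no test. The precursors of the 9 genes had a median GC content of 59.4%, and Mir770 had the highest at 70.2%. The detected genes of the distal array had a median of 43.0% and all 438 detected genes one of 53.2%. Nearer to the set stood the 5 detected genes opposite Rtl1, with a median of 56.5%. The 2 other detected genes near Meg3 and Rian had 55.1%.

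In the annotation (GENCODE M21, mm10), Mir770 lies within Meg3, spanned by 4 of its transcripts and overlapping an exon of 1 of them. The next 5 genes lie outside annotated hosts, between the end of Meg3 and Rtl1. Mir673 (chromosome 12, 109571990 to 109572080) begins 263 bases beyond the end of Meg3. Mir493 (109580233 to 109580315) follows. Then come Mir337 (109585789 to 109585885), Mir540 (109586080 to 109586146) and Mir665 (109586314 to 109586407), with gaps of 194 and 167 bases. Mir341, Mir1188 and Mir370 (109618258 to 109618336) lie in introns of Rian. The stated rule thus matched the annotation for all 9 genes, and none overlaps Rtl1.

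Replicate 2 held 18276311 reads, with 6985784 counted in the sense direction of a miRNA gene, and replicate 1 held 12506469, with 4429633 so counted. Levels are CPM, a gene's sense count scaled to a library of 1000000 such counts, and the limit that a count of 0 allows (3 counts) corresponded to 0.429 CPM for replicate 2 and to 0.677 CPM for replicate 1. Of the reads of replicate 2, 47.9% were placed at several loci, and of those of replicate 1, 43.9%. Of 13 neuronal marker genes, 9 were detected, and the list summed to 90984 CPM in replicate 2, against 73712 CPM in replicate 1. The 3 Mir124a genes, which encode the miRNA most typical of neurons, had 3 to 16 counts each. Reads placed at more than 1 of these genes would enter none of their counts, so the level of that miRNA was not observed here. The libraries also stood apart in markers of other cell types. All 11 genes of an epithelial and sensory list were detected in both, with a sum of 3953 CPM in replicate 2, against 29476 CPM in replicate 1, and 10 of the 11 were at least 2 times higher in replicate 1. The 5 choroid plexus genes summed to 2471 CPM in replicate 2 and 1173 CPM in replicate 1. After the TMM scaling used below, 4 of the 5 were at least 2 times higher in replicate 2. With that scaling, 10.5% of the 438 detected genes were at least 2 times higher in replicate 2, and 7.08% in replicate 1. The oligodendrocyte list of 3 genes summed to 7851 CPM in replicate 2, against 7110.3 CPM in replicate 1, the endothelial gene Mir126a to 2948 against 1641, the leukocyte and microglia list of 5 to 1942 against 1345, and the red blood cell list of 2 to 10.7 against 2.48. No gene of these lists was at 0 in both libraries.

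Each of the 9 genes reached 2 CPM, the level taken here as detection, in replicate 2 and in replicate 1, against 19.9% of all 2202 genes. In the same locus, 5 of the 6 genes opposite Rtl1, 34 of the 40 of the distal array and 2 of the 4 other proximal genes were detected. The 9 were chosen with earlier results known, so their detection is no test. Together the 9 genes held 2.18% of the sense counts in replicate 2 (95% Wilson interval 2.17 to 2.19) and 3.56% in replicate 1 (3.54 to 3.57). The mean was 2.87% ± 0.973 (SD, n = 2). Intervals here cover counting error only and leave out differences between libraries. They take each read as separate, though copies made by PCR cannot be told from separate molecules, so they can be too narrow. A single gene made up most of that share. Mir770 took 65.5% of the counts of the set in replicate 2 and 73.4% in replicate 1. The other 8 genes together held 0.753% of all sense counts in replicate 2 and 0.945% in replicate 1 (0.849% ± 0.136, SD, n = 2). By position, the 5 genes between Meg3 and Rtl1 held 0.316% in replicate 2 and 0.388% in replicate 1. The 3 genes in Rian held 0.437% in replicate 2 and 0.557% in replicate 1.

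**Figure D1:**
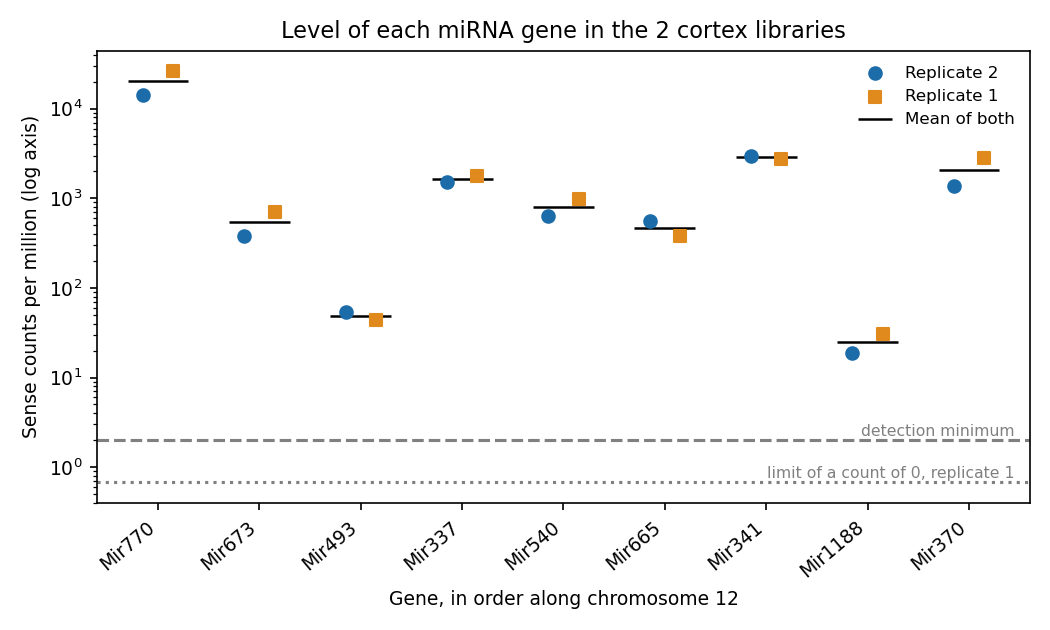
Sense CPM (log axis) of the 9 miRNA genes in order along chromosome 12, with replicate 2 as circles, replicate 1 as squares and the mean as a bar. Mir770 stands highest, with 14276 CPM (replicate 2) and 26109.8 CPM (replicate 1), and Mir1188 lowest, with 18.9 CPM (replicate 2) and 30.7 CPM (replicate 1), still above the detection minimum of 2 CPM.

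Mir770, the miRNA gene inside Meg3, had 99728 counts in replicate 2 and 115657 in replicate 1, or 14276 CPM and 26109.8 CPM. Its mean of 20193 ± 8368 CPM (SD, n = 2) ranked 11 among all 2202 genes. The lower of its libraries was still far above the next gene of the set, and its mean was 7.07 times that of Mir341.

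The genes just past Meg3 were counted far less. Mir673, named in mouse and rat with no human miRNA of that number, had 2656 counts in replicate 2 and 3152 in replicate 1, or 380.2 CPM and 712 CPM. Read against Mir770 upstream, the pair kept nearly the same proportion, with Mir770 at 37.5 times the counts of Mir673 in replicate 2 and 36.7 times in replicate 1. Mir493 had 372 counts in replicate 2 and 195 in replicate 1, or 53.3 CPM and 44.0 CPM. It was the second lowest of the set and was lower than Mir673 by a factor of 7.14 in replicate 2 and 16.2 in replicate 1.

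Mir337, Mir540 and Mir665, packed into a short stretch, kept 1 order of levels. Mir337 had 10747 counts in replicate 2 and 7859 in replicate 1, or 1538 CPM and 1774 CPM. Mir540 had 4398 counts in replicate 2 and 4295 in replicate 1, or 629.6 CPM and 969.6 CPM. Mir665 had 3907 counts in replicate 2 and 1699 in replicate 1, or 559 CPM and 384 CPM. The order held in both libraries, with different spacing. Mir337 had 2.44 times the counts of Mir540 in replicate 2 and 1.83 times in replicate 1. Mir540 had 1.13 times the counts of Mir665 in replicate 2 and 2.53 times in replicate 1.

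The 3 genes in introns of Rian held both high and low levels. Mir341, a repeat-rich precursor named in mouse and rat, had 20751 counts in replicate 2 and 12130 in replicate 1, or 2970.5 CPM and 2738 CPM (2854 ± 164, SD, n = 2). Mir1188, only 226 bases downstream in the same introns, had 132 counts in replicate 2 and 136 in replicate 1, or 18.9 CPM and 30.7 CPM. Mir341 had 157 times the counts of Mir1188 in replicate 2 and 89.2 times in replicate 1. Mir370, whose mature miRNA has been reported in human liver-derived cells to repress the fatty acid oxidation gene CPT1A, had 9644 counts in replicate 2 and 12395 in replicate 1, or 1381 CPM and 2798 CPM.

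In the order of mean levels, Mir770 was followed by Mir341, Mir370 (2089 ± 1002 CPM), Mir337 (1656 ± 167), Mir540 (799.6 ± 240.4), Mir673 (546 ± 234), Mir665 (471 ± 124), Mir493 (48.6 ± 6.53) and Mir1188 (24.8 ± 8.35), each with SD and n = 2. The highest mean was 814 times the lowest. Neighbours in this order whose ranges over the libraries did not overlap were Mir770 and Mir341, Mir337 and Mir540, Mir665 and Mir493, and Mir493 and Mir1188. The other neighbours, Mir341 with Mir370, Mir370 with Mir337, Mir540 with Mir673 and Mir673 with Mir665, had ranges that overlapped. Of these, Mir540 was above Mir673 within each library, while the other 3 pairs stood in opposite orders in replicate 2 and replicate 1. A read of this size covers a whole mature miRNA, so CPM was not divided by length. Divided by precursor length, which ran from 67 to 120 nt, the order of the 9 genes was the same.

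Within the locus, the 9 genes held 17.1% of the counts of all 67 annotated miRNA genes in replicate 2 (Wilson 17.1 to 17.2) and 24.5% in replicate 1 (24.3 to 24.6), a mean of 20.8% ± 5.17 (SD, n = 2). The 6 genes opposite Rtl1 held 45.5% in replicate 2 and 45.7% in replicate 1, led by Mir127 (44811 ± 2208 CPM), Mir433 (10173 ± 4160 CPM) and Mir434 (5512 ± 579 CPM). The 40 genes of the distal array held 37.4% in replicate 2 and 29.8% in replicate 1, led by Mir541 (9430 ± 628 CPM), Mir487b (9142 ± 2107 CPM) and Mir382 (4844 ± 1080 CPM), and 34 of them were detected. The 9 genes thus held a smaller share of the locus in replicate 2 than in replicate 1, and the distal array a larger one. Most of the difference of the set lay in Mir770. Of the 888799 locus counts of replicate 2, Mir770 held 99728 and the other 8 genes 52607. Of the 644131 of replicate 1, Mir770 held 115657 and the other 8 genes 41861. The genes opposite Rtl1 held nearly the same share as a sum, but differed among themselves. Mir433 had 50517 counts in replicate 2 and 58093 in replicate 1, and Mir127 had 302128 and 205412. Mir770 stood between Mir127 and Mir433 and above every gene of the distal array in both libraries. The median level of the 9 genes was 799.6 CPM, against 324 CPM over the detected genes of the distal array and 5512 CPM over those opposite Rtl1. The median of the set depends on its choice. The 4 other proximal genes, which fit the same description and are left out of it, had means of at most 16.2 CPM.

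**Figure D2:**
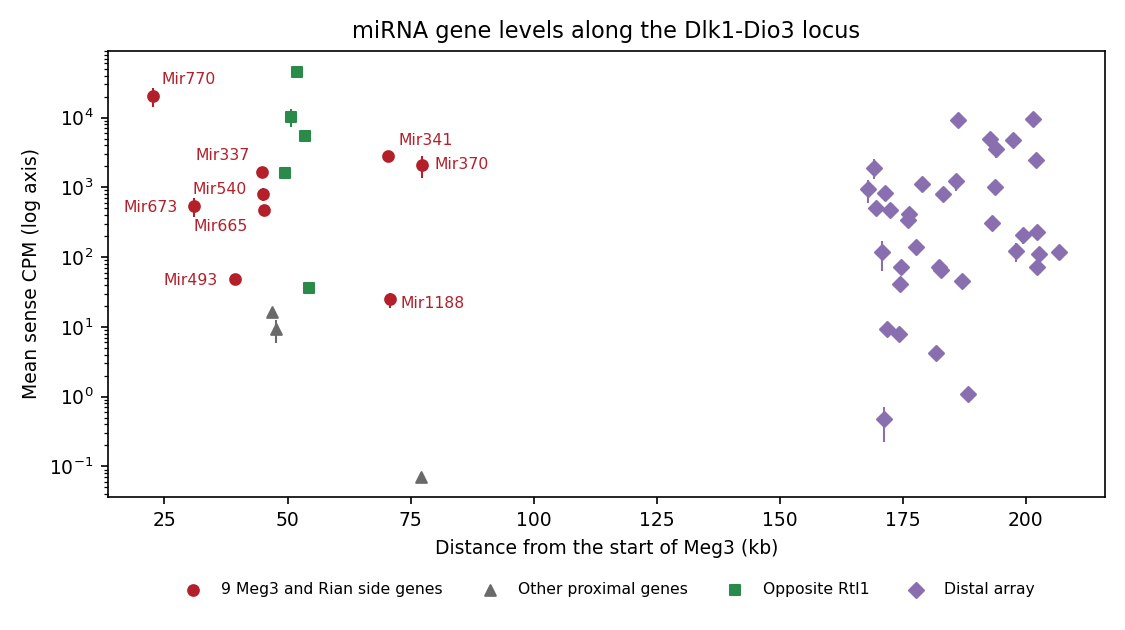
Mean sense CPM (log axis) of the plus-strand miRNA genes with any count against distance from the start of Meg3 in kb, with vertical lines for the range of both libraries where both are above 0. The 9 genes (circles) run from Mir1188 at 24.8 CPM to Mir770 at 20193 CPM, which only Mir127 (44811 CPM), opposite Rtl1, exceeds.

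Of the other annotated miRNA genes from Meg3 to Mir370 that do not overlap Rtl1, 2 were detected, both at low levels. Mir3070a had 105 counts in replicate 2 and 77 in replicate 1 (mean 16.2 CPM), near the level of Mir1188. Mir3070b had 41 counts in replicate 2 and 56 in replicate 1 (mean 9.26 CPM). Mir1906-1, inside Meg3, had no count in either library, and Gm23912, beside Mir370, had 1 count in replicate 2 and none in replicate 1. Mir3544, opposite Mir337, had 6 sense counts in replicate 2 and 5 in replicate 1. The column of counts that ignores strand listed Mir337 at 0 in both libraries, since reads in overlapping genes are left out of it. The sense column keeps them, and the opposite-strand counts of Mir337 equalled the sense counts of Mir3544 in each library. The other 8 genes had 0 opposite-strand counts in each library.

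How far the libraries agreed was described by the log2 ratio of replicate 2 over replicate 1 after TMM scaling, with an exact 95% counting interval. This compares 2 libraries and not conditions, so no p-value is given. No member reached a ratio of 2, against 10.5% of the 438 detected genes higher in replicate 2 and 7.08% with a lead of replicate 1. The median absolute log2 ratio of the 9 genes was 0.50, the same at this precision as the 0.50 of all detected genes. At a ratio of 1.5, 1 of 9 was higher in replicate 2 (Mir665), where 22.8% of detected genes were, and 3 of 9 were higher in replicate 1 (Mir370, Mir673 and Mir770), where 19.9% were. With so few genes these counts are no sign of a difference from the background.

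Mir665 had the largest ratio toward replicate 2, at 0.77 (interval 0.69 to 0.85), or 1.70 times. Mir493 followed at 0.50 (0.24 to 0.76) and Mir341 at 0.34 (0.31 to 0.37). Toward replicate 1, Mir370 had -0.80 (-0.83 to -0.76), Mir673 had -0.68 (-0.76 to -0.61), Mir770 had -0.65 (-0.66 to -0.63), Mir1188 had -0.48 (-0.83 to -0.12) and Mir540 had -0.40 (-0.46 to -0.34). Genes of the same host thus lay on both sides of 0, as Mir341 and Mir370 in Rian did, and so did Mir540 and Mir665, which lie 167 bases apart. Mir337 had 0.02 (-0.02 to 0.06), and its sign turned under other scalings, to -0.21 with library totals. Library totals lowered the median of all detected genes to -0.16, against 0.06 with TMM, and turned the split of genes at a ratio of 2 to 29 toward replicate 2 and 55 toward replicate 1, against 46 toward replicate 2 and 31 toward replicate 1 with TMM. With library totals Mir370 alone of the 9 passed a ratio of 2, at -1.02, or -0.86 relative to the median of the detected genes.

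**Figure D3:**
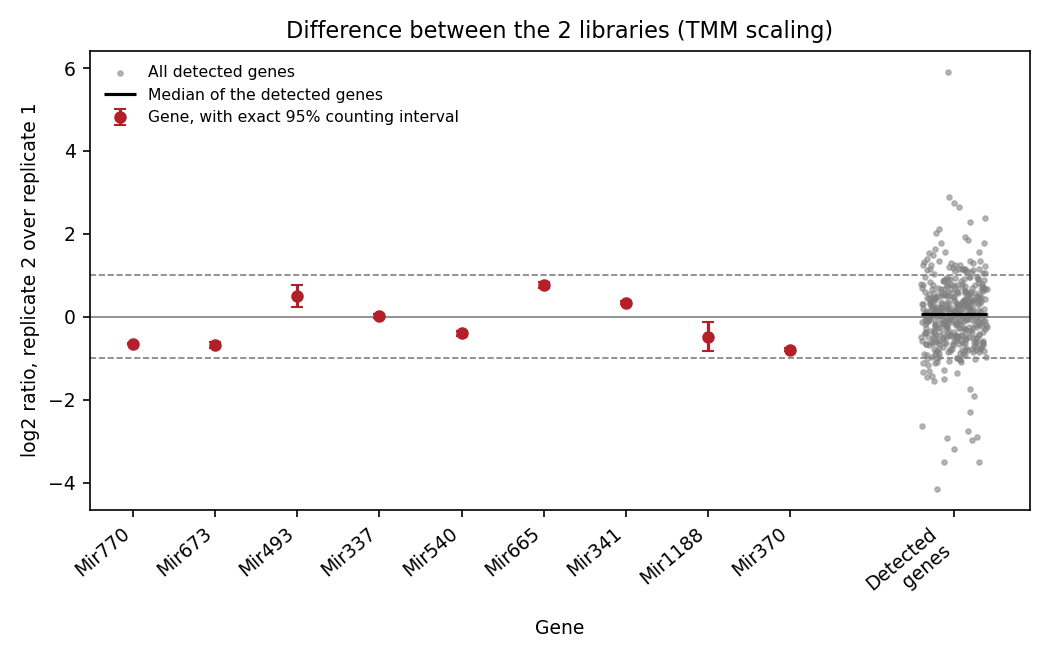
The log2 ratio of replicate 2 over replicate 1 for each of the 9 genes with its exact 95% counting interval, beside single points for all 438 detected genes and their median as a bar, with dashed lines at a ratio of 2. All 9 points lie between the dashed lines, from -0.80 for Mir370 to 0.77 for Mir665.

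The median log2 ratio of the 9 genes was -0.40, against 0.06 over all detected genes, 0.01 over the detected genes opposite Rtl1 and 0.32 over those of the distal array. Beside it, the ratio varied with precursor GC content. Over the 438 detected genes, Spearman's rho between GC content and the log2 ratio was -0.45, a description over genes that share both libraries. Split into 4 bins by GC content, the bin with the lowest (110 genes, up to 46.1%) had a median log2 ratio of 0.54, and the bin with the highest (110 genes, from 59.5%) had -0.37. The 4 members with over 60% GC, Mir770, Mir673, Mir540 and Mir1188, all had negative ratios. Just below them, Mir341 at 59.4% GC had 0.34, and the lowest ratio, -0.80, was that of Mir370 at 55.7% GC. With the GC trend removed the median of the set was -0.11, against 0.01 over all detected genes, and that of Mir770 was -0.11. Mir370 kept -0.78 and Mir665 kept 0.69, while Mir341 went from 0.34 to 0.48. The epithelial and sensory markers given above were also lower in replicate 2 than in replicate 1, with a median log2 ratio of -2.89. The choroid plexus markers were higher, at 1.23, as were the detected neuronal markers, at 0.57. The part of GC content and of these markers in the ratios of the 9 genes was not tested. Fewer cells of a type and less RNA per cell cannot be told apart in bulk tissue. The labels cite different adapter trimming documents for the libraries, so trimming and replicate cannot be told apart.

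**Figure D4:**
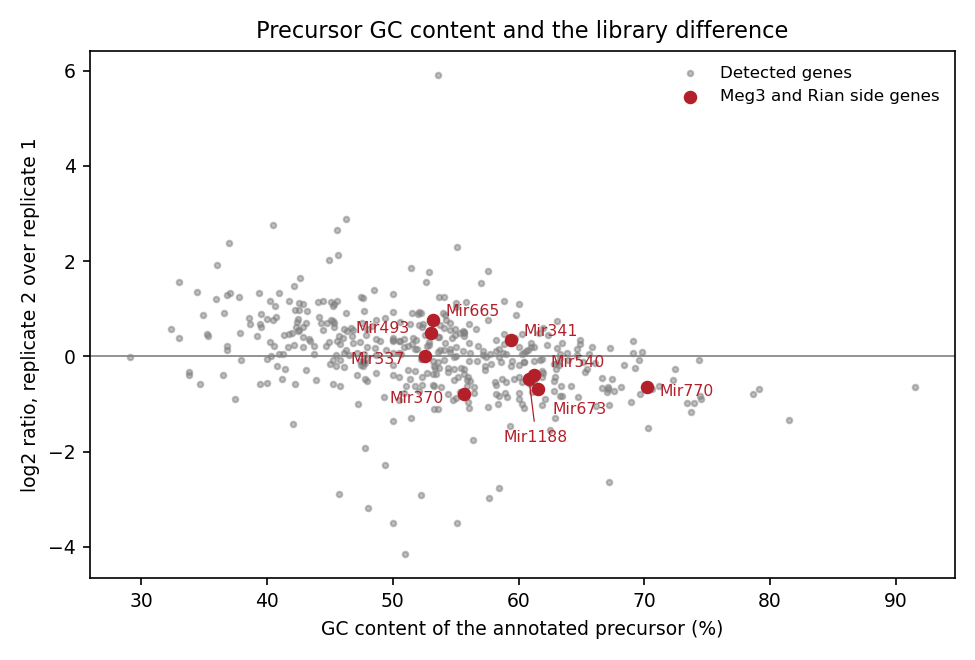
The log2 ratio of replicate 2 over replicate 1 against the GC content of the annotated precursor in percent, for all detected genes (grey) and the 9 Meg3 and Rian side genes (red, named). Mir770 is the member with the most GC at 70.2%, and the members near 53% GC, Mir337, Mir493 and Mir665, have ratios from 0.02 to 0.77. Mir370, at 55.7% GC, has the lowest ratio, -0.80.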

How the data were processed

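Small RNA libraries of 2 cortex samples (1 group) were analysed. Per the deposited readme text and labels, the authors' tables hold raw counts per miRNA gene on mm10 with annotation M21, in 3 columns (either strand, 1 strand, the other). Of the alignment and counting, neither tool nor version is given in the sources used here. The 4 summary lines that name no gene were left out. Beside the reads at several loci given in the report, unmapped reads were 11.1% of replicate 2 and 17.0% of replicate 1, and reads outside genes 2.81% and 3.67%, and the sense column lists 0 ambiguous reads. The members and lists were chosen with earlier results of these data known. All 2202 gene identifiers matched GENCODE M21. CPM used the sense column over all gene rows. Ratios used TMM factors over all gene rows (edgeR 4.0.16, R 4.3.3), with 0.5 counts added and exact 95% counting intervals (scipy 1.17.1). The ratio and its interval were checked on counts simulated with counting error only and scaled by library totals. The TMM factors were not part of that check. The GC trend was a lowess fit (statsmodels 0.14.6). Alternatives were library totals, DESeq2 1.42.0 size factors, other minimums, the either-strand column, thinning, per-length levels and leaving out Mir139. Genes named were all 9 members, the other genes of their stretch, the 3 highest genes opposite Rtl1 and of the distal array, and genes that share a member seed, beside single marker genes and Mir139, the gene of highest count.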

Additional observations from a re-analysis of the deposited data

Results flagged for a closer look

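Opposite-strand counts, which the comparisons above do not use, exceeded the limit that a count of 0 allows (3 counts) at Mir337 alone of the 9 genes, with 6 counts in replicate 2 and 5 in replicate 1. They equal the sense counts of Mir3544, the gene annotated on the other strand.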

How the results depend on the processing

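The number of detected genes was 9 under every setting tried except the either-strand column, where Mir337 is listed at 0 and 8 were detected. Without replicate 1 the share of the set in all sense counts was 2.18%, and without replicate 2 it was 3.56%, while its share of the locus was 17.1% and 24.5%. With Mir139 left out of the total, the mean share of both libraries was 3.56%, against 2.87% with it. The median log2 ratio of the set was -0.40 and moved to -0.62 with library totals, -0.11 with the GC trend removed and -0.50 with TMM over detected genes only, a setting chosen after seeing the data. The number of genes at a ratio of 2 was 0, became 1 (Mir370) with library totals and 4 at a ratio of 1.5. The cause of these shifts was not tested. The sign turned for Mir337 alone of the 9 genes, with library totals (-0.21), TMM over detected genes (-0.08) and the GC trend removed (-0.08). Over the single genes, 37 of the alternative CPM values over both libraries stayed within 1 SD and 8 moved. That SD is the spread of the 2 libraries, so a gene on which they differ more has more room to stay. With Mir139 left out of the total, Mir770 stayed at 25022 CPM against 20193, while Mir337 moved to 2062 CPM from 1656. For the ratios, 48 stayed within their counting interval and 23 moved. That interval is wider for genes of low count, so staying within it is no measure of stability. With library totals, Mir770 moved from -0.65 to -0.87, while Mir1188 stayed within its interval at -0.70 against -0.48. No paired analysis was possible because the series has 1 group, and no ratio exists without either library. Depth limits Mir1188 most, whose 132 and 136 counts in replicates 2 and 1 gave the widest interval.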
